A study of Homo sapiens with 20 samples.

Results

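The question examined here was whether inducing the Huntington's disease (HD) state changed the RNA of cytoplasmic RNA granules differently from the RNA of exosomes. The value given for each gene is a difference of differences, called the interaction below: the HD effect in granules (HD-induced minus control) minus the HD effect in exosomes, on the log2 scale. It was taken over 19 of the 20 libraries of the series, all made from HEK293, a human embryonic kidney cell line. The labels form 4 groups, with 5 control exosome, 4 HD-induced exosome, 5 control granule and 5 HD-induced granule libraries. HD exosome replicate 4 was left out by the definition of the comparison, because it held 1074 reads.

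The granule groups carry the tag SG in the sample labels, and their protocol speaks of granule cores. The labels give no agent, construct or HTT allele for the induction, no time, and no treatment for the controls beyond that word, so what the HD-induced state models cannot be narrowed further here. The submitters describe the 5 replicates of each group as biological. RNA of both kinds was taken with 1 kit, and stranded total RNA libraries were sequenced as read pairs.

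RNA granules are membraneless assemblies of untranslated messenger RNA, other RNA and RNA-binding proteins inside the cell. Exosomes are small vesicles that form inside endosomes and are released to the outside, carrying proteins and RNA with them. Huntington's disease is caused by an expanded CAG repeat in HTT, which lengthens a polyglutamine tract in the huntingtin protein, a protein with roles in vesicle transport and in transcription.

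Libraries differed in ways that the groups do not explain. Reads assigned to named genes ranged from 11355356 to 24514989 in granule libraries and from 5300770 to 9039448 in control exosomes, but HD exosome replicates 2, 3 and 5 held 1941886, 1327496 and 3003716. In HD exosome replicate 2, 86.6% of reads went to entries without a gene name, against 24.9% to 59.2% in the other libraries. HD granule replicate 3 was nearer to the control exosomes (median Spearman correlation 0.931 across genes) than to the other HD granules (0.860), and HD exosome replicate 1 (0.977) resembled the control exosomes about as much as they resembled each other (0.967 to 0.975). The files hold nothing that checks the labels of these libraries, so the values of the HD groups hold only as far as those labels do. Where removing 1 library moved a list's median by over 1.5 times or turned its sign, the lowest median over the 19 removals of 1 library, the highest or both are given. A single value given in this way is 1 end of the range. Where a printed interaction of a named gene moved that far without HD granule replicate 3, it is given with and without it. Removals of other libraries are given for only some of the named genes. Of 14 genes fixed as markers of HEK293, 12 passed the filter on low counts, and their summed level lay between 1098 and 2461 counts per 1000000 reads (CPM) in all 19 libraries. Levels are shares of each library's named reads after TMM scaling, so less RNA in a fraction and fewer vesicles or granules cannot be told apart.

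Of 17002 genes tested, 2 had an interaction that passed edgeR's quasi-likelihood test at a Benjamini-Hochberg adjusted p under 0.05, which is 0.0118% of the genes tested, 1 higher (0.00588%) and 1 lower (0.00588%). The HD effect was lower in granules than in exosomes for the pseudogene PDCD6P1, and higher for a long noncoding RNA without a symbol, ENSG00000290793. At an unadjusted p under 0.05 there were 820 genes (4.82%), of which 466 had a positive and 354 a negative interaction. Among the 10514 genes with a mean of at least 5 CPM in all 4 groups, which left out both called genes, the smallest adjusted p was 0.561, although 430 of these genes had an interaction of at least 1 in size.

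The precision of this comparison bounds what it could have shown. For the 10514 genes the median standard error (SE) of the interaction was 0.37, against 0.27 for the HD effect in exosomes and 0.25 for that in granules. The 95% interval of the interaction lay inside a 4-fold difference in either direction for 9445 genes (89.8%) and inside a 2-fold difference for 4620 (43.9%). It lay inside a 1.5-fold difference for 553 genes (5.26%), so a different HD effect of that size could be neither shown nor set aside for most transcripts.

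The number of genes called for each HD effect by itself depended on the method. In exosomes 3 genes passed in edgeR (0.0176% of 17002, with 2 higher, 0.0118%, and 1 lower, 0.00588%), and 1405 (8.26%) had an unadjusted p under 0.05; DESeq2 called 101, and edgeR without HD exosome replicate 1 called 152. In granules edgeR called 0 genes (0%), and 264 (1.55%) had an unadjusted p under 0.05. DESeq2 called 9 genes in granules, and limma voom with library quality weights called 1815, of which 1119 were higher in the HD-induced state. Voom gave HD granule replicate 3 a weight of 0.0752, and edgeR without that library still called 0 genes in granules, with 1121 at an unadjusted p under 0.05. The corresponding counts for the interaction were 21 by DESeq2 and 0 by voom.

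**Figure D1:**
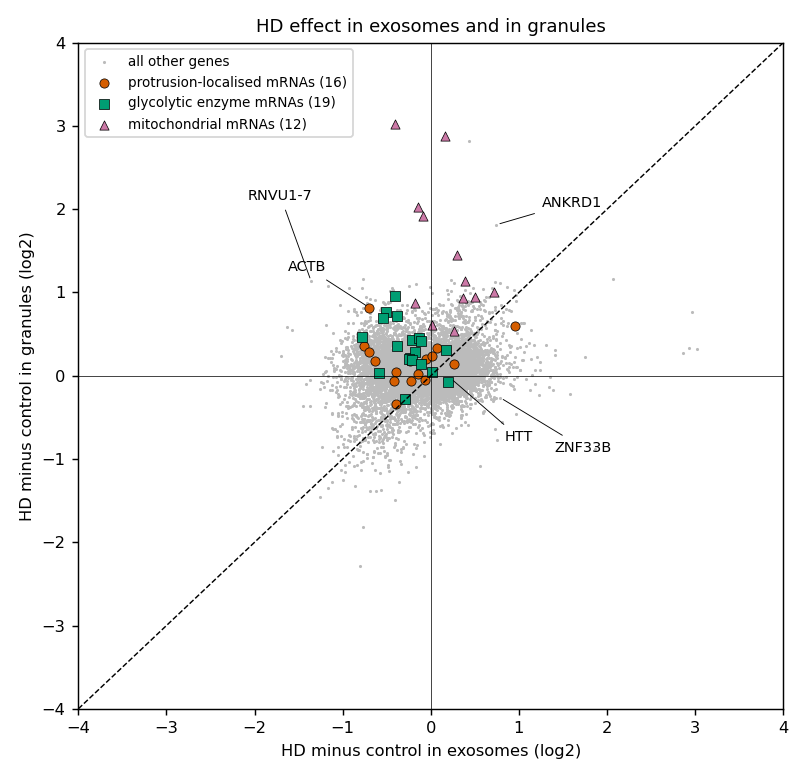
Each point is 1 of 10514 genes, with the HD effect in exosomes on the x axis and that in granules on the y axis (both log2, HD-induced minus control). On the dashed line both effects are equal, and the vertical distance from it is the interaction; mitochondrial mRNAs sit above the line, with a position that rests on HD granule replicate 3.

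The split of transcripts between granules and exosomes was alike in rank in both states. Granule over exosome ratios passed the test for 8137 genes (47.9%) in control cells and for 5919 (34.8%) in HD-induced cells. Of these, 5028 were called in both states, 5022 in the same direction, which is 61.7% of the control list and 84.8% of the HD list, and 6 in opposite directions. Across the 10514 genes the log2 ratios of the 2 states had a Spearman correlation of 0.908, and the HD effects in exosomes and in granules had one of 0.096; both are descriptions across genes measured in the same libraries. The spread of the ratios across genes, as an SD, was 1.05 in control and 0.91 in HD-induced cells. The HD ratios include HD granule replicate 3, which was nearer to the control exosomes than to the other HD granules. They also rest on fewer exosome libraries, most of them with few named reads. Counts and spread were not taken without that granule library, so whether the split was weaker in the HD state was not tested.

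**Figure D2:**
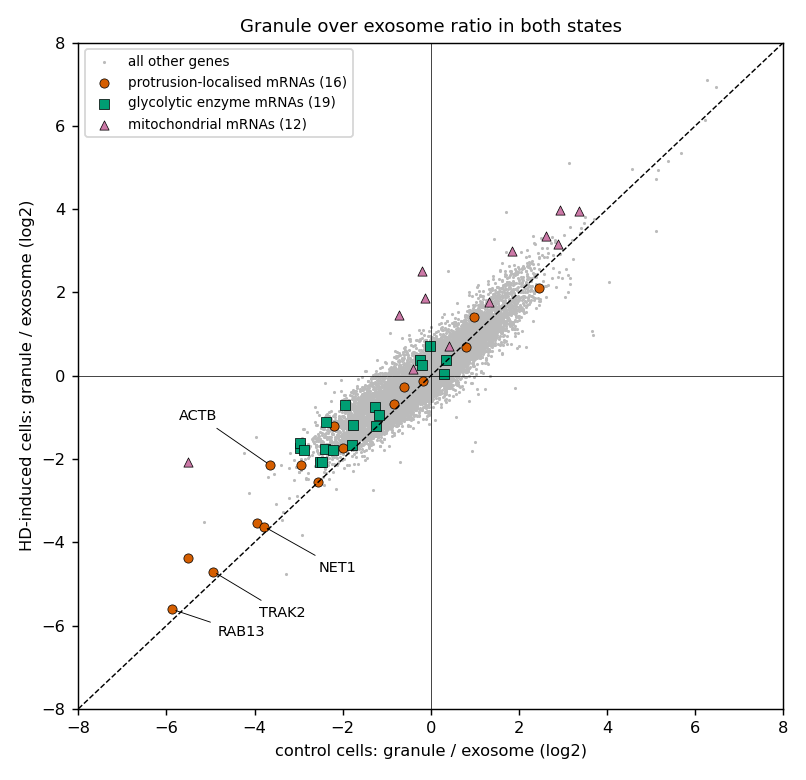
Each point is 1 of 10514 genes, with the log2 granule over exosome ratio in control cells on the x axis and in HD-induced cells on the y axis. Distance above or below the dashed line is the interaction: RAB13, TRAK2 and NET1 lie close to it, and ACTB lies above it.

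PDCD6P1, a transcribed pseudogene of the calcium-binding protein gene PDCD6, lies on chromosome 5 (1597557 to 1634005, GRCh38). It had 0 reads in all 5 control exosome libraries, where the 4 HD exosome libraries had 4.14, 3.15, 2.60 and 7.28 CPM. Control granules held 1.23, 2.83, 3.17, 3.69 and 4.36 CPM, and HD granules 3.73, 5.36, 1.97, 5.07 and 7.81 CPM. The exosome groups did not overlap, and the granule groups did. In exosomes it rose at least 52.7-fold over a floor of 3 counts for the group of control libraries (edgeR adjusted p = 0.00115), and its interaction was -8.12 ± 1.07 (SE, adjusted p = 0.0155), a fitted value that depends on how 0 is treated and is no bound.

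The parent gene PDCD6 was far more abundant than its pseudogene and did not show this pattern. Its mean was 68.8 ± 2.34 CPM (SD, n = 5) in control exosomes and 62.4 ± 15.4 CPM (n = 4) in HD exosomes, and 34.8 ± 5.17 and 29.7 ± 5.46 CPM (n = 5 each) in control and HD granules. With parent and pseudogene summed, control exosomes held 68.8 CPM and HD exosomes 66.8 CPM on average. The difference of differences, taken from group means of log2 CPM with a small constant added, was -0.05. Transcript-level counting has to divide reads between such copies, so the pseudogene's own level is uncertain.

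ENSG00000290793 showed the mirror pattern. It held 4.28, 2.09, 2.98, 5.20 and 2.62 CPM in control exosomes and 0 reads in all 4 HD exosomes. Granule levels were 2.69, 6.09, 2.67, 4.43 and 2.98 CPM in control and 5.15, 3.71, 4.09, 2.31 and 3.02 CPM in HD-induced cells. Again the exosome groups did not overlap and the granule groups did. In exosomes it fell at least 15.8-fold relative to the floor of the HD group (edgeR adjusted p = 0.00295), and its interaction was 8.36 ± 1.16 (SE, adjusted p = 0.0155). Both genes lay outside the rule for naming, 1 as a pseudogene and 1 for lack of a symbol. Their highest group means were also under its limit of 5 CPM, at 4.79 CPM for PDCD6P1 and 3.77 CPM for ENSG00000290793. They were singled out because they were the 2 calls. The third gene called in exosomes, ENSG00000275895, was the other one that rose. It is typed as an artifact in the annotation and had 0 reads in control exosomes, 0 in HD exosome replicate 1 and 52.3, 31.2 and 27.8 CPM in replicates 2, 3 and 5, with an interaction of -11.31 ± 1.86 (adjusted p = 0.109). DESeq2 called that interaction (-10.12, adjusted p = 2.8e-08). So did edgeR without HD exosome replicate 1 (-11.76, adjusted p = 1.7e-05) and with HD exosome replicate 4 included (-11.17, adjusted p = 0.0429).

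Both calls depended on 1 HD exosome library to pass the threshold. Without HD exosome replicate 5 the edgeR adjusted p of PDCD6P1 and of ENSG00000290793 was 0.0505 and no gene was called. Their fitted interactions were then -7.80 and 8.42. Without HD exosome replicate 1, 20 genes were called, 16 higher and 4 lower, among them both of the original calls. Outside these 2 removals, leaving out any 1 library gave 2 or 3 calls, both genes among them.

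**Figure D3:**
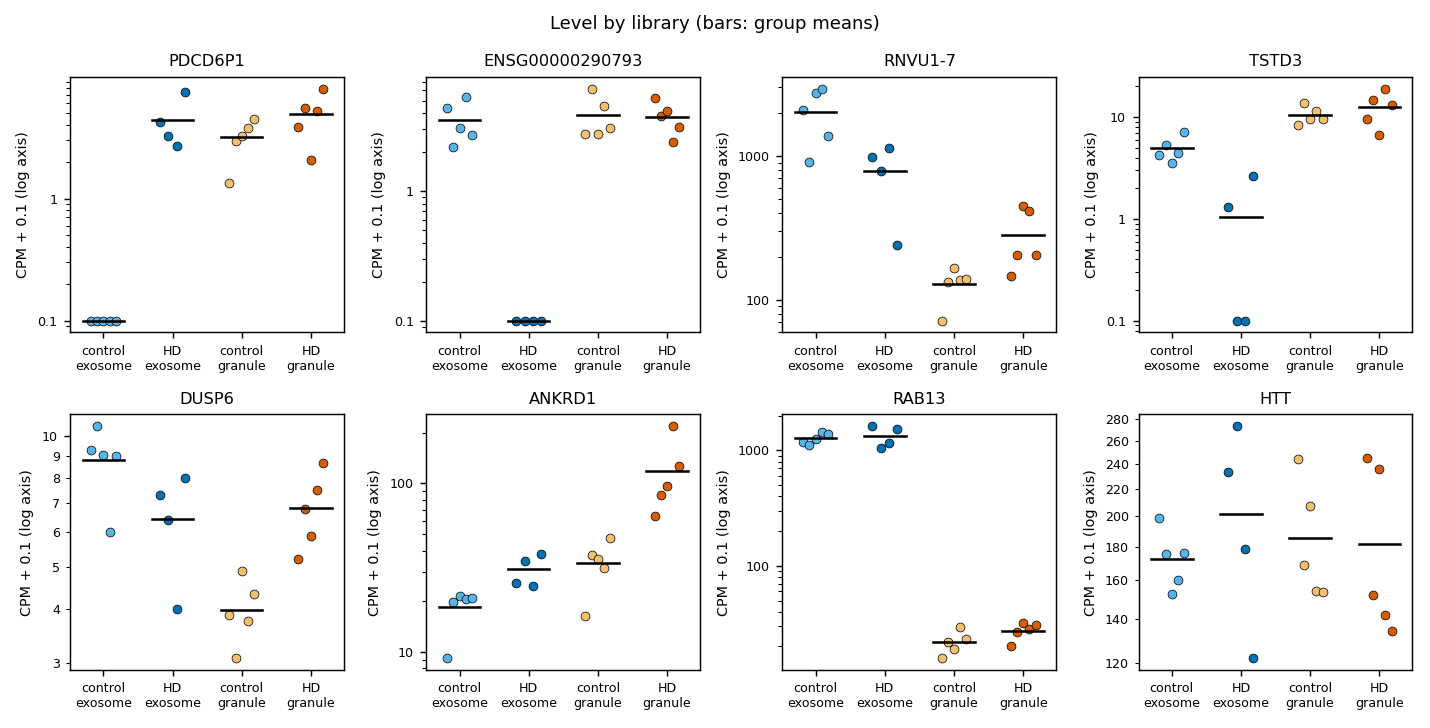
Each point is 1 library, bars are group means, and the y axis is CPM + 0.1 on a log scale. PDCD6P1 and ENSG00000290793 are each at 0 in every library of 1 exosome group and present in the other 3 groups, RAB13 sits high in both exosome groups, and HTT overlaps across all 4 groups.

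HTT itself, on chromosome 4 (3074681 to 3243960), showed no difference in HD effect beyond its error. Control exosomes held 198, 175, 153, 160 and 176 CPM, and HD exosomes 233, 273, 178 and 122 CPM. Control granules held 244, 168, 207, 154 and 154 CPM, and HD granules 245, 152, 235, 142 and 134 CPM. All 4 groups overlapped. The interaction was -0.25 ± 0.32 (SE, 95% interval -0.92 to 0.41, edgeR adjusted p = 0.911), and -0.07 without HD exosome replicate 2. Among 41 genes related to Huntington's disease by interaction or age of onset, 0 were called, 25 had a positive interaction and the median was 0.06, against 0.08 over all genes tested. That median ran from -0.04 without HD granule replicate 3 (17 of 41 positive) to 0.15 without HD granule replicate 1 (28 of 41). The smallest unadjusted p values in that list belonged to the mismatch repair gene MLH3 (-1.04 ± 0.57) and to the acetyltransferase gene CREBBP (0.36 ± 0.20). For MLH3 the interaction was -0.38 without HD exosome replicate 5.

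Since no gene that fitted the naming rule was called, the 5 with the smallest p in each direction are described; their edgeR adjusted p values ran from 0.735 to 0.871. TSTD3, a thiosulfate sulfurtransferase-like gene on chromosome 6, held 4.18, 5.28, 3.45, 4.30 and 7.08 CPM in control exosomes and 1.203, 0, 0 and 2.53 CPM in HD exosomes. Its granule means were 10.5 ± 2.12 CPM (SD, n = 5) in control and 12.6 ± 4.76 CPM (n = 5) in HD-induced cells. The exosome groups did not overlap, and its interaction of 2.34 ± 0.67 (SE) was the largest of the 10 in size. The counts behind it were small, 17 reads in all over the 4 HD exosome libraries.

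The other 4 genes with positive values had smaller interactions. VPS26C, a subunit of the retriever complex that recycles cargo from endosomes, held 51.6, 56.1, 58.4, 57.5 and 54.8 CPM in control exosomes and 48.2, 39.0, 44.8 and 43.3 CPM in HD exosomes, with no overlap, and its interaction was 0.67 ± 0.19. SPATA5L1, an AAA ATPase, averaged 33.0 ± 2.84 CPM (SD, n = 5) in control and 18.6 ± 5.05 CPM (n = 4) in HD exosomes without overlap, with an interaction of 0.96 ± 0.28. For TUBB2A, a beta tubulin, the granule groups were the ones that did not overlap, at 18.1 to 20.4 CPM in control and 23.6 to 37.1 CPM in HD-induced cells (interaction 0.99 ± 0.30). DUSP6, a phosphatase that switches off ERK kinases, likewise ran from 2.97 to 4.79 CPM in control granules and from 5.10 to 8.59 CPM in HD granules, and from 5.92 to 10.5 CPM in control and 3.90 to 7.91 CPM in HD exosomes (interaction 1.22 ± 0.38).

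All 5 genes with negative values were higher on average in HD than in control exosomes and had fitted effects of smaller size in granules. C1orf21 ran from 15.2 to 26.2 CPM in control exosomes and from 24.99 to 39.7 CPM in HD exosomes, with an interaction of -1.02 ± 0.26. DSC3, a desmosomal cadherin, held 15.3 to 33.9 CPM in control exosomes and 25.4, 50.4, 56.5 and 111 CPM in HD exosomes, while its granule means were 49.1 and 48.8 CPM (interaction -1.36 ± 0.41). The remaining 3 encode zinc finger proteins. ZFP37 ran from 2.87 to 4.73 CPM in control and from 8.42 to 11.1 CPM in HD exosomes without overlap (interaction -1.20 ± 0.38), ZBED6 did not overlap either (49.8 to 60.8 against 62.1 to 99.3 CPM, interaction -0.78 ± 0.23), and ZNF33B overlapped (13.9 to 25.9 against 20.8 to 42.7 CPM, interaction -1.05 ± 0.31). ZBED6 sits inside another gene on chromosome 1, so reads of the 2 can be hard to separate. Over 480 ZNF zinc finger mRNAs 0 were called, 190 had a positive interaction, and the median was -0.12, against 0.08 over all genes, and it ran from -0.19 without HD exosome replicate 3 to -0.0095 without HD exosome replicate 5. C1orf21 was called by DESeq2 (-1.07, adjusted p = 0.0333).

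The 5 genes with the smallest p for the granule effect were led by ANKRD1, a cardiac ankyrin repeat protein known as a target of the YAP coactivator. It held 16.3, 37.4, 35.3, 31.5 and 47.6 CPM in control granules and 63.8, 85.8, 97.1, 219 and 126 CPM in HD granules. In exosomes it held 9.10, 19.8, 21.5, 20.6 and 20.9 CPM in control and 25.5, 34.6, 24.7 and 38.3 CPM in HD-induced cells. The HD groups lay above the control groups without overlap in both fractions. The HD effect was 1.81 ± 0.33 in granules (edgeR adjusted p = 0.363) and 0.74 ± 0.35 in exosomes (adjusted p = 0.598), and the interaction was 1.07 ± 0.47 (adjusted p = 0.871). Also among them were TMSB10, which sequesters actin monomers (granule effect 1.11 ± 0.28, exosome effect 0.26 ± 0.29), the cytokine receptor TNFRSF9 (1.04 ± 0.27 and 0.59 ± 0.30) and SGF29, a chromatin reader of the SAGA complex (0.90 ± 0.27 and 0.17 ± 0.30). For these 4 genes the fitted effect was larger in granules, and for none of them did the difference pass the test. The interaction of SGF29 was 0.74 ± 0.41, and 0.42 without HD granule replicate 3.

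The same choice for exosomes gave DSC3 and ZFP37, described above, and KRT16, KRT6A and NCBP2AS2. NCBP2AS2 held 12.3 to 19.4 CPM in control exosomes and 1.95 to 8.15 CPM in HD exosomes, without overlap, and 5.61 to 12.0 against 5.12 to 9.32 CPM in granules, with overlap. Its exosome effect was -1.45 ± 0.35 (edgeR adjusted p = 0.274) and its interaction 1.09 ± 0.45.

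U1 small nuclear RNA, which pairs with the start of introns during splicing, is encoded by many near-identical genes. The 2 copies below are shown because the annotated variant gene RNVU1-7 had the smallest interaction p of the spliceosomal RNAs while differing from the standard copy RNU1-1 by 1 base. The capital marks that base, T150C from RNU1-1 to RNVU1-7, counted from the 5′ end of the 164-base RNA. Both were read from the GENCODE transcripts of GRCh38 and lie on the minus strand, RNU1-1 at chr1:16514122-16514285 and RNVU1-7 at chr1:148038753-148038916.
RNU1-1: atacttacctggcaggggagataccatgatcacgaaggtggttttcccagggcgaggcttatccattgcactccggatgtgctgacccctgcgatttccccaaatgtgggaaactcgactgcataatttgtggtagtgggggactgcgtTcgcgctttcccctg
RNVU1-7: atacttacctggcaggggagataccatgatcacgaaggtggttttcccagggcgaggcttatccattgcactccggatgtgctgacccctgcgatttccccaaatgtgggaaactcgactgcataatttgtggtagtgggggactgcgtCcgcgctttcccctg

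RNVU1-7 held 2098, 908, 2764, 2940 and 1386 CPM in control exosomes and 982, 786, 1143 and 241 CPM in HD exosomes. In granules it held 71.3, 132, 166, 136 and 141 CPM in control and 145, 204, 448, 418 and 205 CPM in HD-induced cells. Both pairs of groups overlapped. The HD effect was -1.36 ± 0.44 in exosomes and 1.13 ± 0.41 in granules, with an interaction of 2.49 ± 0.60 (SE, edgeR adjusted p = 0.561).

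The copy that takes the reads varied from library to library. RNU1-1 was at 0 in 3 of 5 control granule libraries and at 20022 and 16150 CPM in the others, and at 0 in 3 of 5 HD granule libraries. Summed over the 25 U1 genes, of which 21 had reads, control exosomes held 3335 to 7767 CPM, HD exosomes 1554 to 5320 CPM, control granules 141 to 20505 CPM and HD granules 249 to 14709 CPM. Taken from group means of log2 CPM, with a small constant added to each CPM, the difference of differences was then 0.64, against 2.49 for RNVU1-7 alone. So the value of a single U1 copy is uncertain, and the sum spanned a wider range within each granule group than it differed between states.

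Of 21 spliceosomal RNAs tested, 0 were called and 2 had a positive interaction, with a median of -1.98 that became -0.63 over 23 tested without HD exosome replicate 2. RNU5B-1, a U5 copy, was at 0 in all HD granule libraries and in 4 of 5 control granule libraries. Its fitted granule effect of -9.38 thus rests on 32.7 CPM in control granule replicate 4, and its exosome effect was 2.57. HD exosome replicate 2 held 550 CPM of it, and without that library its fitted interaction went from -11.95 to -9.04. DESeq2 called it (adjusted p = 4.7e-09), and edgeR did not (adjusted p = 0.871). Small nucleolar and Cajal body RNAs, which guide modification of ribosomal and spliceosomal RNA, had 0 of 124 called and a median interaction of -0.99, which turned to 0.54 over 135 tested when HD exosome replicate 2 was left out. SNORA22C and SNORA3A, the 2 with the smallest p, were at 0 in all control exosomes and at 0.13 to 1.90 and 0 to 5.04 CPM in HD exosomes. Among 8 structured cytoplasmic RNAs 0 were called and the median was 0.95 (1.43 without HD exosome replicate 5). RN7SL2, the RNA of the signal recognition particle, was at 0 in all exosome libraries but HD exosome replicate 2, where it held 12201 CPM, and RMRP, the RNA of RNase MRP, had an interaction of 0.91 ± 0.42.

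Shares of all reads by RNA class were also compared. Reads divided between copies of 1 class stay together in such a share. Reads divided with another class, or with entries without a gene name, do not. The test permuted HD and control labels within each fraction over all 31752 arrangements, and of 12 classes 0 passed after adjustment. It sets the observed difference against no HD effect in either fraction, so a small p by itself does not show that the effects differ. Miscellaneous RNA had the smallest p: its share was 0.0161% ± 0.0047 (SD, n = 5) in control exosomes, 0.0856% ± 0.0578 (n = 4) in HD exosomes, and 0.0605% ± 0.0175 and 0.0623% ± 0.0174 (n = 5 each) in control and HD granules, a log2 difference of -1.99 (exact permutation p = 0.0488, adjusted p = 0.586, two-sided). HD exosome replicates 1, 2, 3 and 5 held 0.0144%, 0.139%, 0.0636% and 0.125%. Replicate 2 alone among the exosomes held RN7SL2 (12201 CPM), and replicate 5 alone held RN7SL1 (1053 CPM), another copy of that RNA. The shares of these replicates thus include single copies that no control exosome library held. The snRNA share was 0.809% ± 0.221 in control exosomes and 0.296% ± 0.227 in HD exosomes with no overlap between the groups, and 0.632% ± 0.708 against 0.323% ± 0.371 in granules (log2 difference 1.33, exact permutation p = 0.353). As summed CPM of the spliceosomal RNAs tested, a share of named reads, the exosome groups did overlap, at 3379 to 7947 in control and 2906 to 5481 in HD-induced cells. Ribozyme RNA, that is the RNase P and RNase MRP RNAs, was at 0.804%, 0.0420%, 0.878% and 0.0429% in HD exosome replicates 1, 2, 3 and 5. In replicate 2, 86.6% of all reads went to entries without a gene name, which lowers the share of each named class there. The low shares of replicates 2 and 5 are thus not alike over named reads by this measure alone. As CPM of named reads, RMRP was at 1224, 495, 848 and 576 in these 4 libraries.

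**Figure D4:**
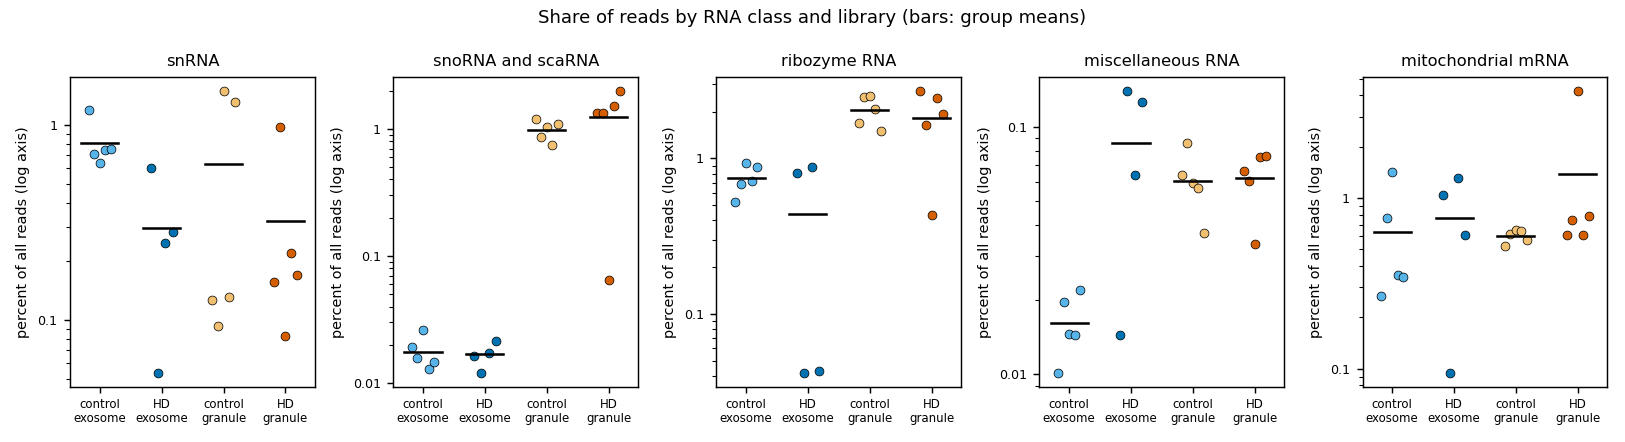
Points are libraries, bars are group means, and the y axis is the percent of all reads in the class on a log scale. HD granule replicate 3 is the lowest HD granule library for snoRNA (0.0641%), ribozyme (0.432%) and miscellaneous RNA (0.0336%) and the highest for mitochondrial mRNA (4.23%).

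Mitochondrial mRNAs, the 13 transcripts of the mitochondrial genome for subunits of the respiratory chain and ATP synthase, had a positive interaction in 13 of 13 cases, 0 of them called, with a median of 1.06. MT-ND5, a complex I subunit, held 189, 363, 234, 196 and 164 CPM in control granules and 229, 224, 7557, 209 and 234 CPM in HD granules. In exosomes it held 114, 239, 678, 134 and 147 CPM in control and 359, 399, 188 and 232 CPM in HD-induced cells. Only HD granule replicate 3 stood out, and all pairs of groups overlapped. Without that library 5 of 13 had a positive interaction and the median was -0.15; for MT-ND5 the interaction went from 2.72 ± 1.27 to -0.20. MT-CO2, a subunit of cytochrome oxidase, held 362 CPM in HD granule replicate 3 and 6.52 to 15.7 CPM in the other HD granules (interaction 3.43 ± 1.46, and 0.61 without that library).

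Other lists leaned to the positive side, and some of them through the same library. Glycolytic enzyme mRNAs had 19 of 20 positive and a median of 0.56, which became 13 of 20 and 0.22 without HD granule replicate 3. PFKP, phosphofructokinase of platelet type, held 221 CPM in that library and 37.8 to 54.5 CPM in the other HD granules, and its interaction was 1.27 ± 0.56, while that of the brain aldolase ALDOC was 1.26 ± 0.56; without that library these were 0.45 and 0.67. Immediate early mRNAs, the fast transcriptional response genes, had 28 of 33 positive, with a median of 0.53 that was 0.40 (27 of 33) without that library. In this list the exosome median was -0.37 and the granule median 0.16, and after DUSP6 the smallest p was that of the AP-1 subunit FOSL1 (1.29 ± 0.49). None of these lists held a called gene, against 0.0118% of all genes tested.

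Nuclear-encoded respiratory chain mRNAs were positive for 61 of 77 (median 0.31, COX5A 0.66 ± 0.29, SDHA 0.69 ± 0.38), and replication-dependent histone mRNAs for 45 of 58 (median 0.33, H2BC15 1.02 ± 0.34, H2BC21 0.98 ± 0.36). Without HD granule replicate 3 these medians were 0.44 and 0.54, and without HD granule replicate 2 they were 0.15 (50 of 77) and 0.10 (35 of 58). The value of SDHA was 0.27 without HD granule replicate 3. Cytosolic ribosomal protein mRNAs were positive for 60 of 86, with a median of 0.27 that ran from 0.095 (53 of 86) without HD granule replicate 2 to 0.41 (67 of 86) without HD granule replicate 1; RPSA, a protein of the small subunit, had a value of -0.69 ± 0.36 and RPLP2, a stalk protein of the large subunit, 0.72 ± 0.40. The median of this list was 0.63 (79 of 86) by voom. With the replicate number within each state fitted as a block it was -0.11 (33 of 86). For mitochondrial ribosomal protein mRNAs the count was 48 of 78 and the median 0.10 (MRPL10 0.96 ± 0.40, MRPS2 1.21 ± 0.58). That median was -0.06 (31 of 78) without HD granule replicate 2 and 0.19 (49 of 78) without HD granule replicate 3, where MRPL10 and MRPS2 had 0.56 and 0.59. Over all 17002 genes 9478 were positive, and that background moved with scaling, from a median of 0.08 with TMM to 0.01 with DESeq2 size factors and -0.03 with upper-quartile factors. With TMM it ran from 0.02 without HD granule replicate 3 to 0.14 without HD granule replicate 1.

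Lists of genes for granules and vesicles had medians near that of all genes, with 0 called in each. For mRNAs encoding stress granule proteins 24 of 40 were positive with a median of 0.07; the median ran from 0.0026 without HD granule replicate 4 to 0.18 without HD exosome replicate 5. YBX1, an RNA-binding cold shock protein, had 0.87 ± 0.42, and 0.38 without HD granule replicate 3. For P-body and deadenylation mRNAs it was 23 of 37 and 0.15 (EDC3, a decapping enhancer, 0.59 ± 0.23, and PNRC1 0.60 ± 0.25), with medians of 0.085 without control granule replicate 2 and 0.23 without control granule replicate 1. For exosome biogenesis and marker mRNAs it was 18 of 38 and -0.01 (the ESCRT-III gene CHMP1A 1.07 ± 0.50, and RAB27B, which serves vesicle release, -0.69 ± 0.40). The last median ran from -0.12 without control granule replicate 1 to 0.09 without HD exosome replicate 5, and CHMP1A had 0.67 without HD granule replicate 3. Of 6 transcripts used as references for stress granules 3 were positive (median -0.06, from -0.31 without HD granule replicate 1 to 0.07 without HD granule replicate 4; CDK6 -0.34 ± 0.23, ZNF704 -0.33 ± 0.28).

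Heat shock chaperone mRNAs had 18 of 32 positive and a median of 0.10, which ran from -0.05 (16 of 32) without HD granule replicate 4 to 0.24 (28 of 32) without HD granule replicate 1. The inducible Hsp70 genes HSPA1A and HSPA1B, near-identical copies whose reads are hard to divide, had interactions of 1.46 ± 0.61 and 1.496 ± 0.56 (0.86 for HSPA1A without HD granule replicate 3), with HSPA1B at 160 to 406 CPM in control granules and 220 to 1061 CPM in HD granules, which overlapped. For unfolded protein and integrated stress response mRNAs the count was 22 of 38 and the median 0.12, from -0.04 (18 of 38) without HD granule replicate 3 to 0.19 (24 of 38) without HD exosome replicate 1 (the sensor ERN1 0.64 ± 0.29, TRIB3 1.05 ± 0.58). For autophagy and lysosome mRNAs it was 23 of 35 and 0.24, and 0.14 without HD granule replicate 3 (the autophagy receptor SQSTM1 0.84 ± 0.32, GABARAPL1 0.60 ± 0.29). Proteasome mRNAs had 16 of 33 positive and a median of -0.10, which ran from -0.22 without control granule replicate 1 to 0.14 without control granule replicate 4. ADRM1, a ubiquitin receptor, had 1.18 ± 0.71 and PSMD3 0.87 ± 0.57, and they had 0.41 and 0.15 without HD granule replicate 3.

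The remaining functional lists also had 0 called. For cholesterol synthesis mRNAs, a pathway often studied in Huntington's disease, 21 of 25 were positive with a median of 0.22 (0.10 without HD granule replicate 2 and without HD granule replicate 3), with DHCR7, an enzyme of the last steps of the pathway, at 0.96 ± 0.59, and at 0.14 without HD granule replicate 3. For p53 target mRNAs 15 of 22 were positive (median 0.15, from 0.05 without HD exosome replicate 3 to 0.26 without HD exosome replicate 5); AEN had 0.84 ± 0.39 and TNFRSF10B 0.46 ± 0.29, and 0.44 and 0.20 without HD granule replicate 3. The count was 16 of 36 for DNA replication and mitosis mRNAs (median -0.02, from -0.07 without control granule replicate 2 to 0.03 without HD granule replicate 1; TYMS 0.62 ± 0.30, BUB1B -0.51 ± 0.30) and 16 of 27 for interferon response mRNAs (median 0.12, from -0.21 without HD granule replicate 3 to 0.36 without HD exosome replicate 1; IFI27 -2.33 ± 1.16, IFIT2 1.81 ± 0.93). Host lncRNAs of snoRNAs had 11 of 19 positive (median 0.19, from 0.07 without HD exosome replicate 5 to 0.38 without HD granule replicate 3). SNHG1 among them held 36.1 to 42.9 CPM in control exosomes and 48.5 to 131 CPM in HD exosomes without overlap (interaction -1.10 ± 0.49), and SNHG17 had 1.19 ± 0.52. Nuclear lncRNAs had 4 of 7 positive (median 0.06, from -0.14 without control exosome replicate 5 to 0.83 over 8 tested without HD exosome replicate 2), with TUG1 at -0.86 ± 0.41; NEAT1 was at 0 in all HD exosomes and at 0 to 62.0 CPM in control exosomes. DESeq2 called the interaction of NEAT1 (adjusted p = 8.0e-05), and edgeR did not (adjusted p = 0.871).

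**Figure D5:**
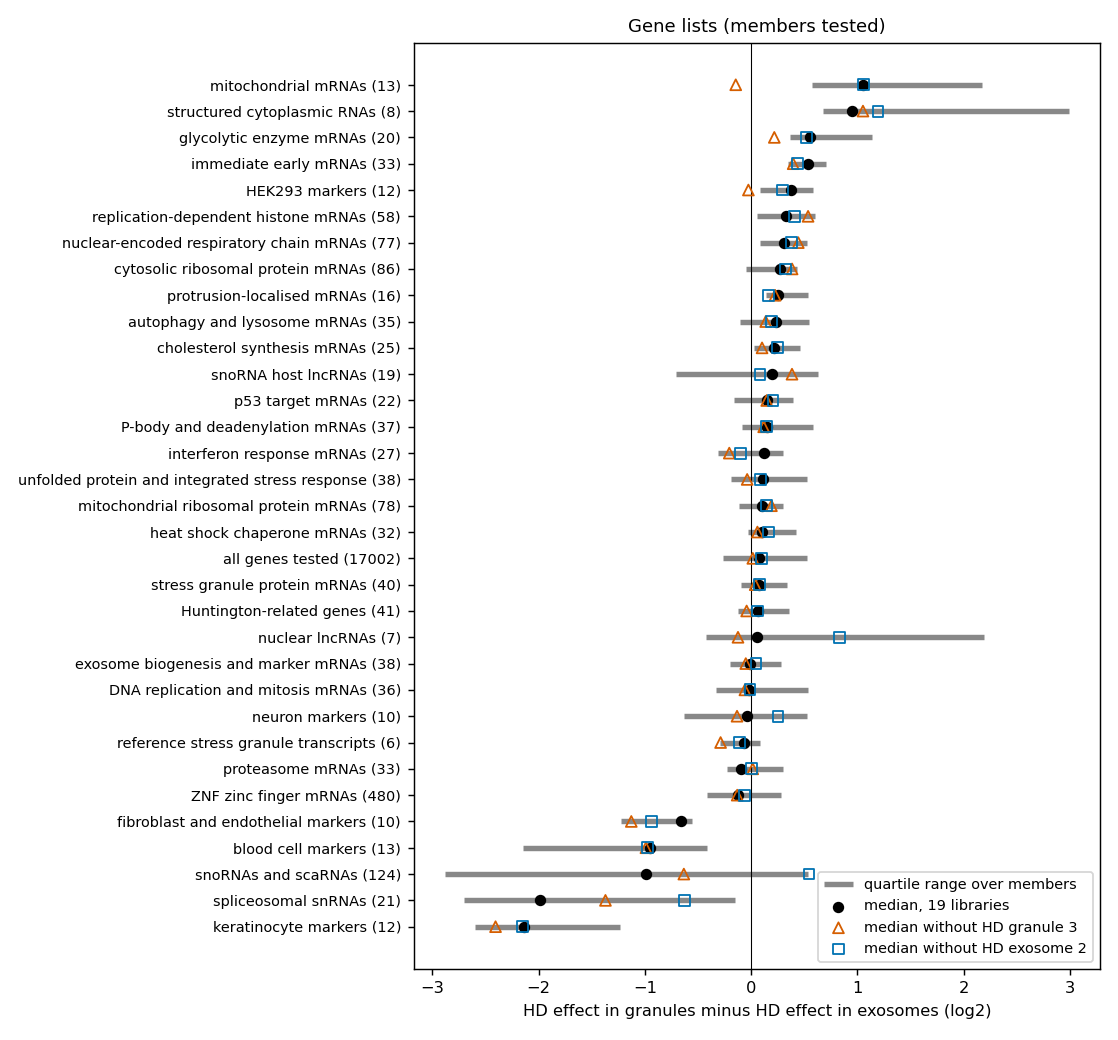
The x axis is the interaction in log2; bars span the quartiles over the members tested, black dots are medians over 19 libraries, and open symbols are medians after 1 library was left out. The mitochondrial mRNA median goes from 1.06 to -0.15 without HD granule replicate 3, and the snoRNA median from -0.99 to 0.54 without HD exosome replicate 2.

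Messenger RNAs known to localise to cell protrusions lay mostly on the exosome side in both states: the granule over exosome ratio was called lower for 11 of 16 in control and for 11 of 16 in HD-induced cells, against 23% and 15.5% of all genes tested. RAB13, a small GTPase of this set, held 1193, 1105, 1256, 1432 and 1374 CPM in control exosomes and 1623, 1045, 1161 and 1533 CPM in HD exosomes. In granules it held 15.7, 21.7, 18.96, 29.3 and 23.1 CPM in control and 19.95, 26.8, 31.6, 28.3 and 30.3 CPM in HD-induced cells. The fractions were far apart and the states overlapped in each. Its granule over exosome ratio was -5.87 in control and -5.61 in HD-induced cells (log2), and the interaction of 0.25 ± 0.27 had a 95% interval from -0.31 to 0.82.

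The motor adaptor TRAK2 (-4.93 and -4.71, interval of the interaction -0.38 to 0.84) and the guanine nucleotide exchange factor NET1 (-3.79 and -3.62, interval -0.40 to 0.73) were similar; these 3 genes were singled out after their values were seen. By rule the list also named ACTB, beta-actin, with ratios of -3.66 and -2.14 and an interaction of 1.52 ± 0.71 (0.63 without HD granule replicate 3), and RASSF3 (-3.95 and -3.54, interaction 0.41 ± 0.20). ACTB held 1284 CPM in HD granule replicate 3 and 206 to 308 CPM in the other HD granules. Of 16 members 14 were positive, 0 called, with a median of 0.25 (0.16 without HD exosome replicate 2, 0.39 without HD exosome replicate 5), and the interval lay inside a 2-fold difference for 8 of 16.

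Summed keratinocyte markers, blood cell markers and fibroblast and endothelial markers stood higher in some HD exosome libraries than in the other libraries. Summed neuron markers did not, at 36.4 to 130 CPM in HD exosomes and 68.8 to 140 CPM in control exosomes. Of 21 keratinocyte markers in the files 12 were tested, and all 12 had a negative interaction (median -2.13, 0 called). These markers were low in granules, so the filter on low counts favoured members that were high in exosomes. The count of negative signs is not independent of that choice. With no filter on low counts 21 were tested, 4 of them positive, and the median was -1.87. Without HD exosome replicate 5, 15 were tested, 7 of them positive, and the median was -0.10. KRT6A, a keratin of stressed epidermis, held 0, 0.77, 4.40, 9.50 and 12.8 CPM in control exosomes and 5.08, 76.8, 76.7 and 157 CPM in HD exosomes, and at most 0.36 CPM in any granule library (interaction -3.93 ± 1.85). KRT16 held 0.22 to 6.0 CPM in control exosomes and 1.07, 29.6, 44.8 and 55.4 CPM in HD exosomes (interaction -4.44 ± 1.51). HD exosome replicates 2, 3 and 5 were above all control exosomes for both, and replicate 1 was not. The summed level of the list ran from 10.01 to 140 CPM in control and from 34.9 to 1253 CPM in HD exosomes, and it ran from 2.80 to 5.02 CPM in control granules and from 6.30 to 8.11 CPM in HD granules. The 3 libraries with the highest sums were those with the fewest named reads, and the part of either in the exosome-side differences given above, that of the desmosomal DSC3 among them, was not tested.

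Blood cell markers had 2 of 13 positive and a median of -0.95, which was -0.54 without HD exosome replicate 5. The filter bears on this count in the same way, and with no filter on low counts 6 of 22 were positive (median -0.93). The alpha-globin gene HBA2, a near-identical copy of HBA1, held 0.94, 0, 74.1 and 780 CPM in HD exosomes and 0 to 15.1 CPM in control exosomes, and CD74, which chaperones MHC class II, 1.87, 1.26, 3.90 and 18.4 against 0.43 to 2.67 CPM (interactions -4.59 ± 2.16 and -2.64 ± 0.95). HD exosome replicate 5 was the highest library for both, and without it the interactions were -1.43 for HBA2 and -1.14 for CD74. Summed blood markers ran from 86.3 to 291 CPM in control and from 104 to 2176 CPM in HD exosomes, and from 16.1 to 109 CPM in granules. For fibroblast and endothelial markers 2 of 10 were positive (median -0.66, from -1.13 without HD granule replicate 3 to -0.41 without HD exosome replicate 5). LUM and KDR among them had -3.32 ± 1.61 and -1.69 ± 1.27. For neuron markers 4 of 10 were positive (median -0.04, and 0.50 over 12 tested without HD exosome replicate 1). NEFH had -2.44 ± 1.17, and -0.80 without HD exosome replicate 2, and MAP2 had 0.82 ± 0.62. Only TF of the serum and liver markers was tested (0.32 ± 1.27, and 1.49 without HD exosome replicate 2), and ALB, APOA1 and the other members did not pass the filter on low counts. HEK293 markers had 9 of 12 positive with a median of 0.37, and -0.03 without HD granule replicate 3, where KRT18 held 124 CPM against 41.8 to 49.5 CPM in the other HD granules (interaction 1.06 ± 0.40, and 0.61 without it); VIM had 0.35 ± 0.26, and 0.14 without it.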

How the data were processed

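Per the submitters' processing notes, reads were handled with Trimmomatic, cutadapt, FastQC and Salmon on GRCh38.p14; their versions were not given in the sources used here. The authors deposited 1 table per library with Salmon's estimated counts and TPM for 921552 entries. TPM, as deposited, served only to check the files. Estimated counts of the 251955 entries with transcript and gene identifiers were summed to 62266 genes and rounded; the other entries, without a gene name, entered class shares only.

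Genes were filtered with filterByExpr and scaled with TMM, and 1 robust quasi-likelihood fit over the 4 groups was made in edgeR 4.0.16 (R 4.3.3), with Benjamini-Hochberg adjustment over all 17002 genes. SE is the log2 value over the square root of F. Alternatives used limma 3.58.1, DESeq2 1.42.0, other scalings and filters, replicate blocks and removal of libraries. The method was tested on simulated data.

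Named are, per direction, up to 10 called protein-coding or lncRNA genes with a symbol and at least 5 CPM in 1 group, or else the 5 with the smallest p, HTT, and 2 members of each of 33 lists; the 5 smallest p of each HD effect were added later. The comparison and the lists were chosen with earlier results of these data known. Coordinates are RefSeq's for GRCh38.p14 by symbol. Floors cover counting error only. Some genes that the rule names are not reported here.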

Additional observations from a re-analysis of the deposited data

Results flagged for a closer look

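The HD effect differed between granules and exosomes, by the test of that difference, for PDCD6P1 (interaction -8.12) and ENSG00000290793 (8.36); both are described above and both rest on exosome groups with 0 reads.

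For every gene chosen by the naming rule or singled out above and for 5 class shares, the highest and lowest library of each group was compared with the others in its group by Dixon's gap over range. Of 364 such groups of values 34 had an outlying library, where chance flags about 1 in 20 groups, and the groups of 1 library are not independent of each other. HD granule replicate 3 was the outlying library in 18 of the 34.

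It was high, in CPM, for MT-ND5 (7557), MT-CO2 (362), ACTB (1284), YBX1 (565), PFKP (221), PSMD3 (140), KRT18 (124), MRPS2 (83.7), MRPL10 (72.5), SNHG17 (51.6), TYMS (39.5) and ENSG00000275895 (16.01), and for the mitochondrial mRNA share (4.23%). It was low for CDK6 (215 CPM), for SNORA3A (0 reads), and for the shares of snoRNA and scaRNA (0.0641%), ribozyme RNA (0.432%) and miscellaneous RNA (0.0336%).

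HD exosome replicate 1 was high for YBX1 (1713 CPM), RPLP2 (295 CPM) and SDHA (145 CPM) and low for SNHG1 (48.5 CPM) and ENSG00000275895 (0 reads). HD exosome replicate 2 was alone in holding RN7SL2 (12201 CPM) among the exosomes, and HD granule replicate 5 was the only HD granule library with 0 reads of it.

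Among control granules, replicate 1 was low for RNVU1-7 (71.3 CPM) and H2BC15 (20.9 CPM), and replicate 4 alone held RNU5B-1 (32.7 CPM). Among control exosomes, replicate 1 was low for ANKRD1 (9.10 CPM) and high for the snRNA share (1.195%), replicate 2 had 0 reads of NEAT1, replicate 4 was low for DUSP6 (5.92 CPM), and replicate 5 was low for MAP2 (4.62 CPM) and alone held LUM (0.31 CPM).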

How the results depend on the processing

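Numbers of genes called in the interaction, in exosomes and in granules (2, 3 and 0) were 21, 101 and 9 with DESeq2, which tested 41925 genes. Voom with quality weights called 0 in the interaction and 1815 in granules. A filter of at least 10 CPM in 4 libraries called 0 in the interaction and 0 in exosomes, with 413 and 962 genes at an unadjusted p under 0.05; both called genes fell below that filter. Leaving out 1 library at a time gave 0 (HD exosome replicate 5) to 20 (HD exosome replicate 1) calls in the interaction and 2 (HD exosome replicate 3) to 152 (HD exosome replicate 1) in exosomes, with 6 without HD granule replicate 3 and 5 without HD exosome replicate 2. The cause was not tested.

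With the replicate number as a block, 0, 1 and 1 genes were called, and with the number within each state as a block, 0 in the interaction; PDCD6P1 then had adjusted p values of 0.0757 and 0.490 and ENSG00000290793 0.229 and 0.490. The samples share only a number: deviations of the 9 same-number pairs of exosome and granule libraries correlated from -0.39 to 0.54 (median 0.35, and -0.10 for different numbers), with 6 of 9 over 0.1, all 4 HD pairs among them, and 2 of 9 exosome libraries correlated best with the granule library of their own number.

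Sign changes were seen for MT-ND5 (-0.21 by voom, -0.022 without HD exosome replicate 2 and HD granule replicate 3 together, -0.20 to 3.10 with single libraries left out), DHCR7 (-0.013 by voom, -0.0074 without both libraries), PSMD3 (-0.043 without both) and TF (-0.31 by voom, -0.15 to 1.49 with single libraries left out). Class share differences changed sign for mitochondrial mRNA (-0.69 without both, -0.17 to 1.10 with single libraries left out) and for snoRNA and scaRNA (0.55 without both, -0.54 to 0.70). Of the other values, 2538 for single genes and 101 for shares kept direction and side of the threshold. List medians changed sign in at least 1 removal of a single library for 15 of 33 lists. Depth limits the HD exosome group most, where 3 counts over the group correspond to 0.218 CPM, against 0.0292 CPM in HD granules.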

Other observations

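Some genes not described above passed the test under an alternative and not over all 19 libraries with edgeR. SLC31A2, a copper transporter of intracellular membranes, had an interaction of 5.51 (edgeR adjusted p = 0.122), of 5.28 by DESeq2 (adjusted p = 0.00276) and of 8.83 without HD exosome replicate 2 and HD granule replicate 3 (adjusted p = 0.0239). STAB1, a scavenger receptor, had -4.43 (edgeR adjusted p = 0.321), -4.53 by DESeq2 (adjusted p = 0.00604) and -4.80 without HD exosome replicate 1 (adjusted p = 0.0377). The immunoglobulin superfamily gene IGSF10 had -2.73 over 19 libraries (adjusted p = 0.777) and -3.14 without HD exosome replicate 1 (adjusted p = 0.0124). GSPT2, a translation termination factor, and MAP3K14, the kinase of noncanonical NF-kappaB signalling, had 2.25 and 3.10 over 19 libraries (edgeR adjusted p = 0.871 for each). Without HD exosome replicate 1 they had 9.04 and 7.65 (edgeR adjusted p = 0.0139 and 0.012). That library held the most named reads of its group (7405993). The exosome effects behind these larger values were -9.02 for GSPT2 and -6.35 for MAP3K14, and -8.22 behind the 8.83 of SLC31A2. Fitted values of that size can depend on how 0 is treated, as for PDCD6P1, and are no bound.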
